A study of Mus musculus with 19 samples.

Results

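DNA transposons, the class of repeats that once moved through the genome by cutting and pasting their DNA, were followed through mouse bone marrow RNA-seq libraries. Transcripts of transposable elements (TE) had been counted per subfamily, a set of repeat copies that descend from the same ancestral element, and each row carried a subfamily, a family and a class. The 191 subfamilies of class DNA among 1071 listed rows are described here. They fell into 117 subfamilies of hAT families, 57 of TcMar (Tc1/mariner-like) families and 17 of other families. The largest families were hAT-Charlie with 71 subfamilies, TcMar-Tigger with 43 and hAT-Tip100 with 31. Smaller ones were hAT-Blackjack (8), TcMar-Tc2 (8), hAT (7), TcMar (3), TcMar-Mariner (3), MULE-MuDR (3), PiggyBac (2), MuDR (1) and a family named only DNA (11). A further 18 rows carried the uncertain class "DNA?" and were left out. Of the 191, 181 were listed in all 3 cell sets, and the remaining 10 are rare elements such as Eulor1 and MER136.

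A complete DNA transposon encodes a transposase, the enzyme that recognises the inverted repeats at its ends, excises it and inserts it elsewhere. Mouse DNA transposons are old and no longer move, and most copies are short non-autonomous relics that lie in introns and between genes, where they are transcribed mainly as parts of other transcripts. Several host genes descend from captured transposases, among them Cenpb, which encodes a protein of centromeres, and Rag1 and Rag2, which cut antigen receptor genes in lymphocytes. A rise in repeat transcripts is often read as a sign of weakened heterochromatin, the compact chromatin that keeps repeats silent.

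The study concerns a mutant form of ASXL1, a chromatin regulator often altered in clonal hematopoiesis, and its relation to EHMT histone methyltransferases and heterochromatin. Freshly isolated mouse bone marrow cells gave 19 libraries in 6 groups. Cd11b+ myeloid cells at 4 months (young) comprised 3 MT (mutant) and 4 WT (wild-type) libraries, Cd11b+ cells at 18 months (old) 3 MT and 3 WT, and LK cells (lineage-negative, c-Kit+ progenitors) at 18 months 3 MT and 3 WT. The labels give neither the mutant allele, a driver, nor the sex of the animals, and do not say that replicates of a group are separate animals, so p-values measure the spread between libraries, which may be partly technical.

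Libraries held 26251822 to 68260809 gene counts and 1021701 to 4438906 TE counts. Levels below are counts per 1000000 gene counts of the same library (CPM). The sorting markers Itgam and Kit followed the labels. Itgam, which encodes CD11b, was at 1478 to 1807 CPM in young and 2630 to 2827 CPM in old Cd11b+ libraries, against 57.5 to 101 CPM in LK, and Kit was at 202 to 280 CPM in LK against 50.1 to 114 CPM in Cd11b+ libraries. The lymphocyte gene Rag1 was at 22.2 to 63.0 CPM in young and 0.24 to 1.32 CPM in old Cd11b+ libraries, and at 2.77 to 7.38 CPM in LK. Rag2 was at 1.60 to 5.46 CPM in young and 0 to 0.19 CPM in old Cd11b+ libraries, and at 1.48 to 2.04 CPM in LK. Whether the sorted cells differed in make-up between the ages was not tested. Asxl1 was listed at 110 to 241 CPM in the MT and 130 to 249 CPM in the WT libraries, and gene counts do not show which allele was read. In LK cells every MT library (121.8, 109.7 and 112.5 CPM) was below every WT library (129.8, 147.5 and 150.7 CPM). MT and WT overlapped in young and in old Cd11b+ cells. Young MT replicate 3 and young WT replicate 4 carried Ddx3y (103 and 109 CPM) and no more than 0.30 CPM of Xist, the reverse of the other 5 young libraries, while all 18-month libraries carried Ddx3y. In each 18-month group, replicates 2 and 3 were closer to each other (chi-square per degree of freedom over genes 2.80 to 6.07) than either was to replicate 1 (13.0 to 42.6).

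DNA transposons supplied a small share of TE counts, largest in the young libraries. The class made up 4.50 to 5.24% of TE counts in young Cd11b+ cells, 2.98 to 3.40% in old Cd11b+ cells and 2.51 to 2.71% in LK cells. TE counts here are those of all 1071 listed rows, which include rows of classes RNA and Satellite (1063 rows without them). Its summed level was 5963, 5573 and 7603 CPM in the young MT libraries and 6666, 5130, 5371 and 8869 CPM in the young WT libraries. In old Cd11b+ cells it was 1147, 1127 and 1143 CPM in MT and 1238, 996.2 and 1026 CPM in WT, and in LK cells 830.3, 821.7 and 818.2 CPM in MT and 765.3, 862.7 and 867.8 CPM in WT. MT and WT overlapped in each of the 3 cell sets, and the highest young sums were those of the 2 Ddx3y-bearing libraries. On the log2 scale the MT sum differed from the WT sum by -0.03 in young, 0.07 in old and -0.01 in LK cells, and MT and WT overlapped each time. In old cells the difference was within the spread of the WT libraries (SD 132 CPM) but not of the closer MT libraries (SD 10.4 CPM). The MT over WT difference took either sign in young and in LK cells when single libraries were left out, from -0.17 to 0.16 and from -0.07 to 0.02.

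**Figure D1:**
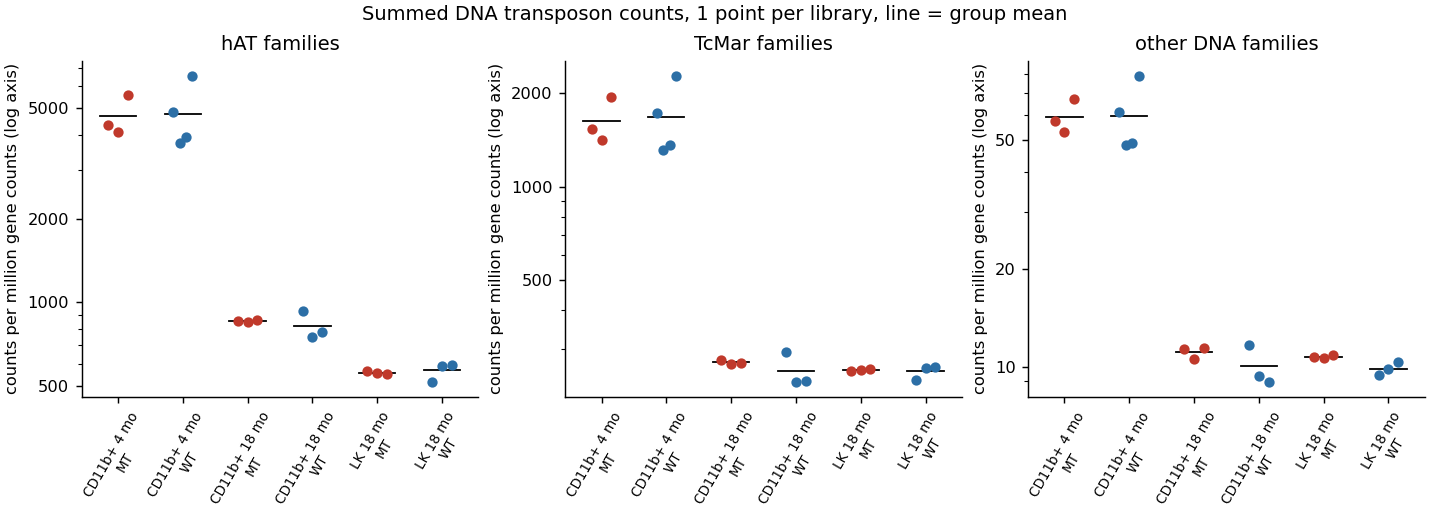
Summed levels of hAT, TcMar and other DNA transposon families, in CPM (log axis), in each of the 6 groups, with 1 point per library, MT red and WT blue, and the group mean as a line. The 7 young libraries lie far above the 12 libraries of 18 months, and MT and WT points overlap in every cell set except for the other families in LK cells.

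The balance between families differed by cell type. hAT families held 73.1 to 73.8% of the DNA transposon counts in young and 75.0 to 76.2% in old Cd11b+ cells, but 67.3 to 68.7% in LK cells. TcMar families held 25.3 to 26.0%, 23.0 to 24.0% and 30.2 to 31.4% in the same order, so that the LK range did not overlap with either Cd11b+ range. The higher TcMar share of LK cells rested on Tigger12: with that subfamily left out, TcMar families held 25.005 to 25.8%, 21.6 to 22.7% and 18.99 to 20.9%, and the LK range was the lowest of the 3. Within the hAT group, hAT-Charlie dominated with 3487 to 6035 CPM in young, 669.3 to 826.3 CPM in old and 485.4 to 554.3 CPM in LK libraries. TcMar-Tigger stood at 1210 to 2098, 211.1 to 262.8 and 221.3 to 243.1 CPM. hAT-Tip100, the family of Zaphod and Arthur elements, stood at 153.0 to 273.6, 53.3 to 75.0 and 15.9 to 22.6 CPM.

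A few subfamilies supplied most of the counts. These counts are divided neither by the length nor by the number of copies of a subfamily, so their order is one of share and not of transcription per copy. URR1B and URR1A, rodent elements of hAT-Charlie, led in Cd11b+ cells and together supplied 24.1 to 26.5% of DNA transposon counts there, against 20.4 to 22.9% in LK cells. URR1B was at 786, 765 and 1047 CPM in young MT, 885, 694, 718 and 1187 CPM in young WT, 143, 140 and 140 CPM in old MT and 158, 125 and 130 CPM in old WT libraries. In LK cells URR1B was at 96.1, 92.8 and 91.0 CPM in MT and 89.6, 104 and 103 CPM in WT, overlapping between genotypes. The next by mean level over the 19 libraries were MER2 (187 CPM, TcMar-Tigger), MER20 (143 CPM), Tigger7 (121 CPM), MER5A (118 CPM), Charlie1a (80.5 CPM), RCHARR1 (78.6 CPM), MER5B (78.0 CPM) and MER58A (71.2 CPM). The 10 most abundant subfamilies held 55.2 to 55.7% of DNA transposon counts in the Cd11b+ groups and 61.9 to 63.4% in the LK groups. In LK cells the leading subfamily was Tigger12, a TcMar-Tigger element that ranked 15 and 16 in old WT and MT Cd11b+ cells and 56 and 51 in young WT and MT cells. At the other end, 23 WT and 24 MT of the 191 young means lay under 1 CPM, against 89 and 87 of 183 in old and 105 and 103 of 183 in LK cells.

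Old Cd11b+ cells showed much less DNA transposon RNA per gene count than young Cd11b+ cells, in both genotypes. Of 176 subfamilies tested among WT libraries, 172 were lower at 18 months and 0 higher, where 91.5% of all tested TE subfamilies were called, 89.5% lower and 1.98% higher (edgeR's quasi-likelihood test, Benjamini-Hochberg adjusted p under 0.05, here and below). Among MT libraries, 172 of 175 were lower and 0 higher, against 93.8% called over all TE subfamilies (91.5% lower and 2.31% higher). Old and young libraries did not overlap in 173 subfamilies of each genotype, always with the old libraries lower, where 92.5% of all TE subfamilies did not overlap in WT and 96.6% in MT. The median log2 fold change of old over young was -2.92 in WT and -2.71 in MT, against -2.12 and -2.14 over all TE subfamilies. The WT and MT comparisons use separate libraries, and 169 subfamilies were called lower in both (all WT calls and 99.4% of the MT calls among the 173 tested in both). When libraries were scaled by TE counts in place of gene counts, 30 subfamilies were higher and 124 lower in WT, and 31 higher and 115 lower in MT. The medians were then -0.83 and -0.65, against -0.02 and -0.03 over all TE subfamilies, which such scaling centres.

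Age cannot be told apart from how the libraries were made. The young libraries held far more of several nuclear or non-polyadenylated RNAs than the 18-month libraries, whatever the cell type or genotype. Rpph1, the RNA of ribonuclease P, was at 6082 to 7255 CPM in young libraries and at 0.84 to 2.86 CPM in all 12 libraries of 18 months. Rn7sk, the 7SK RNA, was at 6778 to 11840 CPM against 0.39 to 1.15 CPM, and Malat1, a nuclear-retained RNA, at 5878 to 8616 CPM against 394 to 790 CPM. The 63 listed Hist1h and Hist2h histone genes, whose messages mostly lack a poly(A) tail, summed to 11644 to 13863 CPM against 195 to 429 CPM. Of the list of 6 nuclear or non-polyadenylated RNAs, all 6 were listed, and their sum was 21552 to 28149 CPM in young, 919 to 1098 CPM in old and 506 to 711 CPM in LK libraries. No young group was matched in these markers by an 18-month group, so no comparison of ages within one kind of library could be made. Other traits differed with age too. Most young libraries carried Xist in place of Ddx3y, while all 18-month libraries carried Ddx3y. Rag1 was at 22.2 to 63.0 CPM in young and 0.24 to 1.32 CPM in old Cd11b+ libraries. The part of these traits in the difference between ages was not tested.

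**Figure D2:**
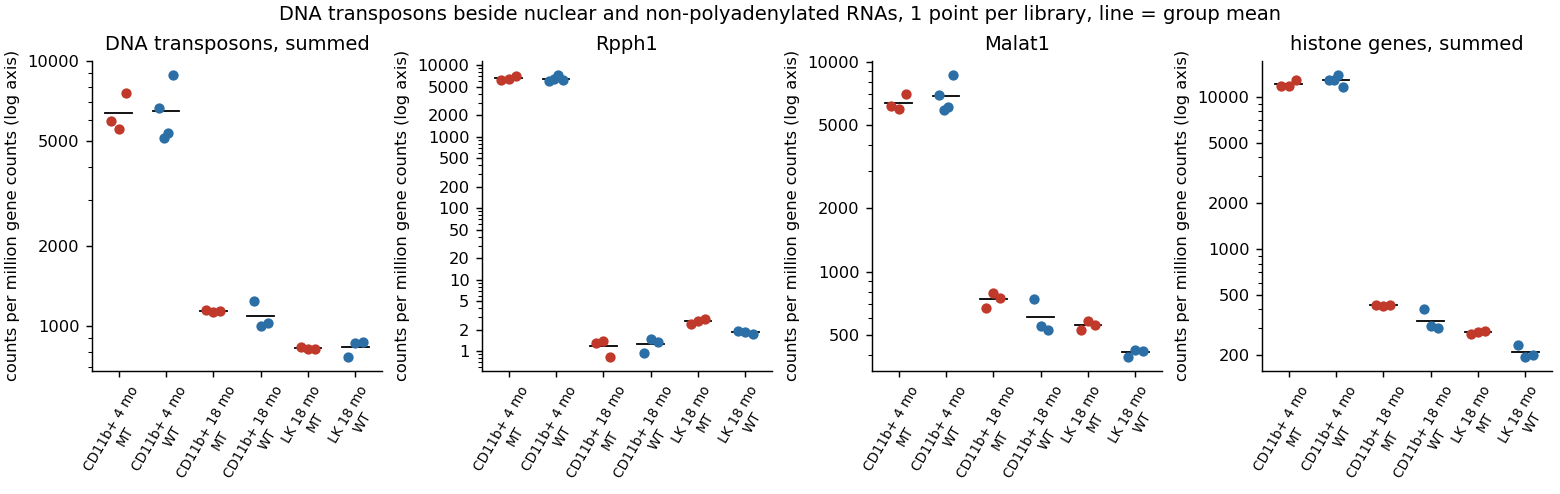
Summed DNA transposon counts beside Rpph1, Malat1 and the summed Hist1h and Hist2h histone genes, in CPM (log axes) with 1 point per library and the group mean as a line. The 7 young libraries are the high ones in all 4 panels, at 5130 CPM or more for DNA transposons and 6082 CPM or more for Rpph1.

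A handful of subfamilies stood apart from that general difference. Tigger12 was at 21.1, 19.97 and 19.4 CPM in young MT and 18.1, 19.1, 19.1 and 19.6 CPM in young WT libraries. At 18 months it was at 18.9, 18.4 and 15.4 CPM in old MT and 15.7, 19.4 and 18.4 CPM in old WT libraries. On these CPM, which carry no factors, young and old overlapped in WT, while in MT every young library was above every old one by a narrow gap. The fit also uses normalisation factors from gene counts, which were higher in young than in old libraries, so its sign can differ from that of the CPM. The fitted difference of old over young was 0.17 ± 0.23 (log2, SE; adjusted p = 0.470) in WT and 0.07 ± 0.17 (adjusted p = 0.703) in MT. Kanga1c, a Tc2-like element, had -0.32 ± 0.23 (adjusted p = 0.181) in WT and -0.13 ± 0.17 (adjusted p = 0.460) in MT. Ricksha_0, a MuDR-like element, had -0.02 ± 0.27 (adjusted p = 0.954) and -0.43 ± 0.22 (adjusted p = 0.0577). The only other uncalled subfamily in WT was Charlie11 (-0.62 ± 0.34, adjusted p = 0.0732), which was called in MT (-0.62 ± 0.29, adjusted p = 0.0339). Among the smallest called falls were Arthur1B (-0.51 in WT, -0.54 in MT), Charlie2a (-0.56, -0.66), Arthur1 (-0.58, -0.78), Zaphod2 (-0.63, -0.50) and Zaphod (-0.64, -0.48). All but Charlie2a belong to hAT-Tip100, a family whose median over its tested subfamilies was -2.85 in WT and -2.75 in MT, close to that of the class. Large falls with 50 counts or more per young library included Kanga1a in WT (-4.69 ± 0.44), Eulor9A in MT (-5.62 ± 0.43), Charlie15b (-4.55 ± 0.32 in WT, adjusted p = 1.75e-42, and -4.82 ± 0.27 in MT, adjusted p = 3.53e-66) and, in WT, Kanga1 (-4.58 ± 0.32, adjusted p = 1.45e-44). Kanga1 stood at 9.92, 7.57, 7.46 and 12.4 CPM in the young WT and at 0.31, 0.52 and 0.18 CPM in the old WT libraries, and its relative Kanga1c at 11.4, 10.9, 10.9 and 15.2 CPM against 9.66, 6.49 and 8.10 CPM. The WT libraries of the 2 ages thus lay far apart for Kanga1 and close together, without overlap, for Kanga1c. In MT, Kanga1c overlapped between the ages, at 12.1, 10.66 and 16.01 CPM in young and 9.36, 9.47 and 10.67 CPM in old libraries.

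LK progenitors carried less DNA transposon RNA than old Cd11b+ cells relative to the typical gene, with Tigger12 the clearest exception. Both cell types were sampled at 18 months, and in bulk RNA fewer cells of a type and less RNA per cell cannot be told apart. The nuclear or non-polyadenylated RNAs summed above were also lower in every LK than in every old Cd11b+ library. Their part in the difference between cell types was not tested. Among WT libraries 3 of 150 tested subfamilies were higher in LK and 118 lower, where 86.2% of all TE subfamilies were called (5.25% higher and 81.0% lower). Among MT libraries 5 of 154 were higher and 127 lower, where 87.1% of all TE subfamilies were called (7.82% higher and 79.3% lower). On CPM without factors, LK and Cd11b+ libraries did not overlap in 92 subfamilies in WT (15 higher and 77 lower in LK, 73.6% of all TE subfamilies not overlapping) and in 114 in MT (16 higher and 98 lower, 77.6%). The median log2 fold change of LK over Cd11b+ was -1.22 in WT and -1.36 in MT, against -1.27 and -1.22 over all TE subfamilies. The size of this difference depended on the scale. With gene counts and no normalisation factors the medians were -0.49 in WT and -0.68 in MT, with 13 higher and 71 lower and 13 higher and 91 lower. With factors from TE counts the medians were 0.05 and -0.15, and 40 were higher against 38 lower in WT and 42 against 53 in MT. Such factors centre the TE subfamilies, whose overall medians were then 0.01 in WT and -0.01 in MT. They place the class against other TE subfamilies only and cannot show its direction against genes. Which subfamilies were high or low changed little between genotypes, which share no library in these 2 comparisons. Of 148 subfamilies tested in both, 113 were called in both and in the same direction (94.2% of the WT calls and 88.3% of the MT calls), 3 higher and 110 lower, and across subfamilies, which are not independent, the 2 sets of fold changes had Pearson's r of 0.91.

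**Figure D3:**
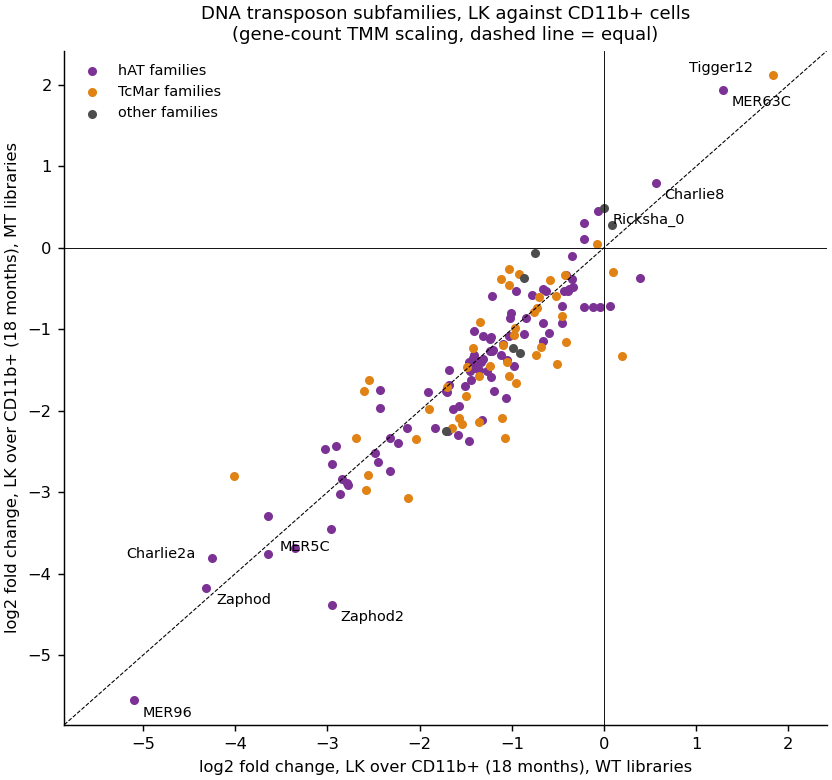
Log2 fold change of LK over Cd11b+ cells at 18 months for each DNA transposon subfamily tested in both genotypes, WT libraries on the horizontal and MT libraries on the vertical axis, coloured by family group, with equality dashed. Tigger12 (1.83 in WT, 2.11 in MT) lies at the upper right and MER96 (-5.10, -5.56) at the lower left, and 110 subfamilies were called lower in both genotypes on this scale.

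Tigger12 was the most abundant DNA transposon subfamily of LK cells. It stood at 116, 123 and 122 CPM in LK MT and 111, 101 and 102 CPM in LK WT libraries, above all 13 Cd11b+ libraries, whose highest was 21.1 CPM. On CPM without factors, its group means in LK were 5.89 times those of old Cd11b+ cells in WT and 6.85 times in MT. Fitted log2 fold changes use normalisation factors from gene counts, which were lower in old Cd11b+ than in LK libraries, and so are smaller than such ratios. They were 1.83 ± 0.10 (adjusted p = 5.96e-11) in WT and 2.11 ± 0.07 (adjusted p = 7.11e-11) in MT, past the threshold in each of 15 alternative settings. Charlie8, a hAT-Charlie element, was at 18.3, 19.6 and 19.9 CPM in LK MT and 18.4, 17.0 and 18.2 CPM in LK WT, against 7.75, 6.19 and 7.22 CPM in old MT and 8.39, 7.02 and 6.52 CPM in old WT Cd11b+ libraries. LK and old Cd11b+ libraries did not overlap, and Charlie8 rose by 0.56 ± 0.12 (adjusted p = 0.000389) in WT and 0.79 ± 0.09 (adjusted p = 4.73e-07) in MT. Gtf2ird2, a gene whose coding sequence includes a domain captured from a Charlie8 element, was at 22.05, 18.6 and 18.6 CPM in LK MT and 17.3, 18.2 and 17.0 CPM in LK WT, against 3.30 to 4.15 CPM in old Cd11b+ libraries. Whether reads of Gtf2ird2 also enter the Charlie8 count was not tested.

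The other subfamilies called higher in LK cells were MER63C in both genotypes and Ricksha_0 and MER58C in MT. MER63C, of hAT-Blackjack, was at 1.82, 0.69 and 0.85 CPM in LK MT against 0.18, 0.10 and 0.28 CPM in old MT, a rise of 1.94 ± 0.50 (adjusted p = 0.00524), and it was the third subfamily called higher in WT (1.29 ± 0.35, adjusted p = 0.00274). Ricksha_0 rose by 0.49 ± 0.12 (adjusted p = 0.00113) and MER58C by 0.45 ± 0.06 (adjusted p = 8.68e-06), both in MT. Among subfamilies with 50 counts or more per Cd11b+ library, the 5 largest falls in each genotype were of hAT-Tip100 and hAT-Charlie. Zaphod stood at 0.69, 0.44 and 0.47 CPM in LK MT and 0.50, 0.51 and 0.38 CPM in LK WT, against 6.68, 5.53 and 6.02 CPM in old MT and 6.17, 5.25 and 5.73 CPM in old WT. No LK library came near an old Cd11b+ library, and Zaphod fell by 4.32 ± 0.18 (adjusted p = 2.02e-12) in WT and fell by 4.18 ± 0.15 (adjusted p = 5.86e-13) in MT. Charlie2a was at 0.92 to 1.13 CPM in LK MT and 0.50 to 1.25 CPM in LK WT, against 8.06 to 10.2 CPM and 9.998 to 10.6 CPM, and fell by 4.25 ± 0.22 (adjusted p = 2.32e-11) in WT and fell by 3.81 ± 0.13 (adjusted p = 2.68e-13) in MT. MER96 was read only 2, 2 and 6 times in LK MT and 2, 10 and 1 times in LK WT libraries, against 104 to 112 and 77 to 141 counts in old Cd11b+ libraries. MER5C fell by 3.64 ± 0.26 (adjusted p = 1.59e-09) in WT and fell by 3.76 ± 0.16 (adjusted p = 5.16e-12) in MT, while MER45B fell by 3.64 ± 0.21 (adjusted p = 1.36e-10) in WT. By family, 17 of 20 tested hAT-Tip100 subfamilies were lower in WT and 18 of 20 in MT with 0 higher, and TcMar-Tigger had 34 of 39 and 33 of 38 lower with Tigger12 alone higher in each. These shares lie near the 81.0% and 79.3% of all TE subfamilies called lower.

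In LK cells, MT and WT libraries differed at a small number of DNA transposons, in both directions. Of 139 subfamilies tested, 7 were higher and 9 lower in MT, 11.5% in all, where 20.0% of all 814 tested TE subfamilies were called (15.2% higher and 4.79% lower). The median log2 fold change was -0.05, against 0.08 over all TE subfamilies. DNA subfamilies were also counted less deeply, with a median of 62.8 counts per library against 152 for the tested subfamilies of other classes. The hAT group had 3 higher and 4 lower of 87, the TcMar group 3 higher and 5 lower of 45, and the other families 1 higher of 7. In 26 subfamilies the 3 MT and 3 WT libraries did not overlap, 11 with MT higher and 15 with MT lower, where 32.2% of all TE subfamilies did not overlap.

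MER58C, a short hAT-Charlie element, had the smallest adjusted p. It was at 51.6, 59.0 and 51.9 CPM in MT and 43.2, 39.3 and 36.4 CPM in WT libraries, and every MT library was above every WT library. Its rise was 0.48 ± 0.08 (adjusted p = 0.000442). Kanga2_a, a Tc2-like element, was at 5.80, 6.31 and 5.38 CPM in MT and 3.58, 4.02 and 4.02 CPM in WT, without overlap, and rose by 0.63 ± 0.12 (adjusted p = 0.00107). MER5B was at 37.4, 40.1 and 39.9 CPM in MT and 33.0, 32.1 and 32.8 CPM in WT and rose by 0.30 ± 0.07 (adjusted p = 0.00633). Charlie12 was at 6.71, 7.08 and 7.63 CPM in MT and 4.91, 5.72 and 5.68 CPM in WT and rose by 0.43 ± 0.11 (adjusted p = 0.0107). These 2 hAT-Charlie elements were also higher in every MT library than in any WT library. The low-level Looper, of the PiggyBac family, rose by 0.78 ± 0.21 (adjusted p = 0.0133) and Tigger13a by 0.77 ± 0.21 (adjusted p = 0.0133). Tigger12, already the leading subfamily of LK cells, was 0.23 ± 0.07 higher in MT (adjusted p = 0.0234).

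**Figure D4:**
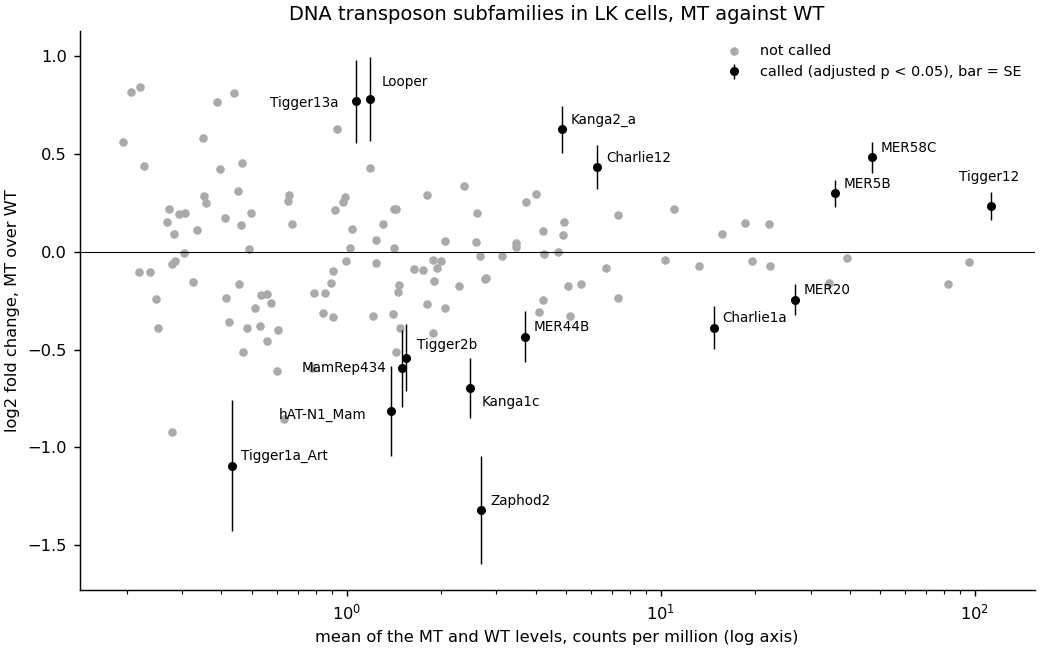
Log2 fold change of MT over WT in LK cells against the mean level of each tested DNA transposon subfamily (CPM, log axis), with called subfamilies in black and bars of 1 standard error. Called subfamilies lie on both sides of 0, from Zaphod2 at -1.32 to Looper at 0.78.

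Zaphod2, a hAT-Tip100 element, showed the largest fall. It was at 1.89, 1.34 and 1.27 CPM in MT and 2.31, 4.36 and 4.93 CPM in WT libraries, and WT replicate 1 lay closer to the MT libraries than to the other WT libraries. The fall was -1.32 ± 0.28 (adjusted p = 0.0112). Kanga1c was at 2.16, 1.65 and 1.77 CPM in MT and 2.58, 3.20 and 3.52 CPM in WT, without overlap and again with WT replicate 1 nearest to MT, and fell by 0.70 ± 0.15 (adjusted p = 0.00397). Kanga2_a and Kanga1c, both of TcMar-Tc2, therefore moved in opposite directions. Charlie1a was at 13.1, 11.5 and 13.1 CPM in MT and 13.3, 19.02 and 18.4 CPM in WT and fell by 0.39 ± 0.11 (adjusted p = 0.0173), and MER20 was at 25.2, 23.8 and 23.4 CPM against 25.9, 30.8 and 31.2 CPM and fell by 0.25 ± 0.08 (adjusted p = 0.0312). In both, MT and WT were separated by a narrow gap at WT replicate 1. The remaining falls were Tigger1a_Art (-1.09 ± 0.33, adjusted p = 0.0244, at 14.7 counts per MT and 26.7 per WT library on average), hAT-N1_Mam (-0.82 ± 0.23, adjusted p = 0.0159), MamRep434 (-0.60 ± 0.20, adjusted p = 0.0361), Tigger2b (-0.54 ± 0.17, adjusted p = 0.0280) and MER44B (-0.43 ± 0.13, adjusted p = 0.0234). MT and WT libraries overlapped in hAT-N1_Mam and MamRep434. Among the abundant subfamilies, URR1A, URR1B, MER2, Tigger7, MER5A, RCHARR1 and MER58A were not called.

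The number of LK calls depended on the fit and on single libraries. The 16 calls became 0 when all 19 libraries shared one estimate of the spread and 0 when the close replicates 2 and 3 of each group were summed into 1. Leaving out WT replicate 1 raised the count to 33. It dropped to 4 or 6 when WT replicate 2 or 3, respectively, was left out, and to 3 or 7 when MT replicate 2 or 3 was. Summed myeloid markers also moved with genotype in LK libraries. The 6 myeloid markers, all detected, summed to 2059, 4184 and 3988 CPM in MT and 1759, 1291 and 1273 CPM in WT. S100a8 was at 599, 1526 and 1398 CPM against 470, 314 and 296 CPM. A sum weighs its highest genes most, and the marker lists of other cell types are not given here. Ly6g, the defining neutrophil marker, was near 0 (0.04 to 1.54 CPM). The 6 nuclear or non-polyadenylated RNAs summed to 680 to 711 CPM in MT and 506 to 540 CPM in WT. Longer genes tended to be lower in the LK MT libraries: across 12568 genes, which are not independent, fold changes and the length of the longest transcript had a Spearman rho of -0.46, where rho was 0.20 in the old and 0.06 in the young Cd11b+ comparison. The part of these differences in the DNA transposon calls was not tested.

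**Figure D5:**
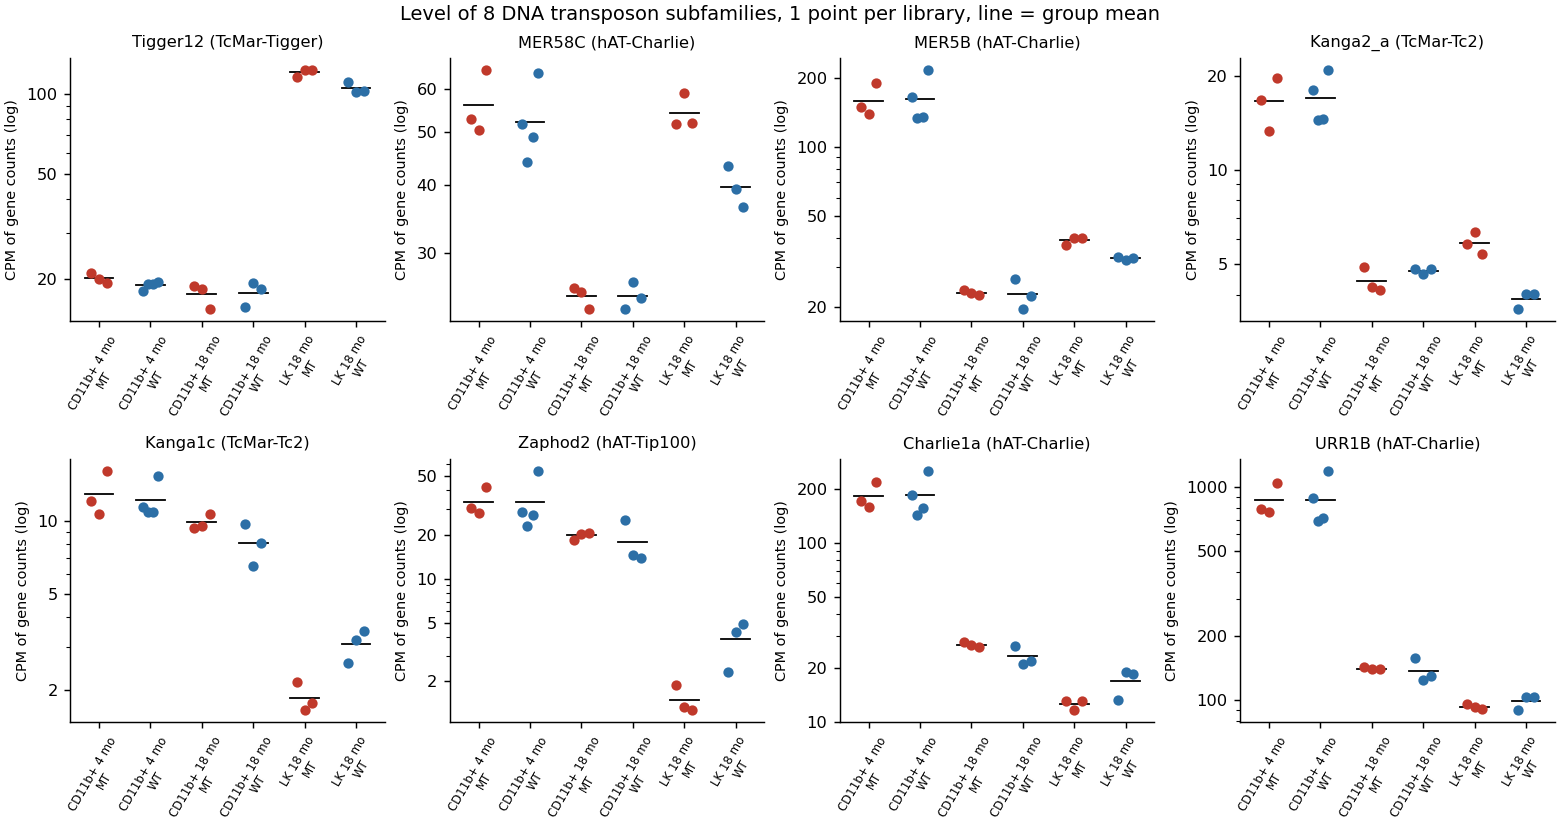
Level of Tigger12, MER58C, MER5B, Kanga2_a, Kanga1c, Zaphod2, Charlie1a and URR1B in each library (CPM, log axes), MT red and WT blue, with the group mean as a line. Tigger12 is at 101 CPM or more in LK and 21.1 CPM or less in Cd11b+ cells at both ages, while URR1B is highest in the young libraries, and in LK cells MT lies above WT for MER58C and below WT for Kanga1c.

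Whether the genotype difference itself differed between LK and Cd11b+ cells at 18 months was read from an interaction term. Of 157 subfamilies, 2 had a term above 0 and 10 below, where 12.5% of all TE subfamilies were called (9.9% above 0 and 2.59% below). Kanga2_a (0.74 ± 0.17, adjusted p = 0.00605) and MER58C (0.49 ± 0.12, adjusted p = 0.00772) were relatively higher in LK MT, and in old Cd11b+ cells MT and WT overlapped for MER58C, at 25.9, 25.5 and 23.7 CPM against 23.6, 26.6 and 24.9 CPM. Tigger2b (-1.01 ± 0.22, adjusted p = 0.00574) and Kanga1c (-0.97 ± 0.20, adjusted p = 0.00438) had negative terms. Tigger2b was at 1.28, 1.28 and 1.19 CPM in LK MT and 1.74, 2.11 and 1.70 CPM in LK WT, but at 3.03, 3.48 and 3.58 CPM in old MT and 2.99, 2.24 and 2.02 CPM in old WT Cd11b+ cells. MT and WT libraries did not overlap in either cell type, MT being the lower in LK and the higher in Cd11b+ cells. The count fell to 0 with all 19 libraries and with replicates 2 and 3 summed, and rose to 24 without old WT replicate 1.

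In old Cd11b+ cells 0 of 155 DNA subfamilies were called between MT and WT, where 0.458% of all TE subfamilies were called. At an unadjusted p under 0.05 there were 11 with edgeR and 5 with DESeq2, which also called 0. The median log2 fold change was 0.07, with 96 subfamilies above 0 and 59 below, against -0.02 over all TE subfamilies. The closest to a call was MMAR1, a mariner element, at 2.09, 2.05 and 2.23 CPM in MT and 1.502, 1.46 and 1.20 CPM in WT (0.60 ± 0.14, adjusted p = 0.0659 with edgeR). Its MT libraries were all above its WT libraries, and 14 subfamilies in all did not overlap (11 with MT higher), where 14.7% of all TE subfamilies did not. Old WT replicate 1, which had the highest class sum of the old libraries, decided this count: without it 26 subfamilies were called, and with factors from TE counts 1 was.

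At 4 months, MT and WT Cd11b+ cells did not differ at any DNA transposon past the threshold, with 0 of 181 called, where 0.0% of all TE subfamilies were called. With edgeR and with DESeq2 alike, 0 reached an unadjusted p under 0.05, and leaving out the 2 Ddx3y-bearing libraries gave 2 at that level and 0 calls. The median log2 fold change was -0.07, against -0.04 over all TE subfamilies, and the 2 genotypes overlapped for all 181 (0.513% of all TE subfamilies did not). The interaction of genotype with age was called for 0 of 178 (0.0% of all TE subfamilies), with 3 at an unadjusted p under 0.05 by edgeR and 2 by DESeq2.

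Genes that descend from captured transposases were read as a separate list of 27, of which 23 were listed. In LK cells 1 was higher and 3 lower in MT, where 29.8% of genes were called (13.9% higher and 15.9% lower). Zbed6, a hAT-derived repressor of transcription, showed the largest difference, at 9.39, 7.17 and 7.38 CPM in MT and 17.7, 26.8 and 27.9 CPM in WT libraries, and fell by 1.56 ± 0.18 (log2, SE; adjusted p = 0.00627). Zbed6 (chromosome 1, 133655879 to 133660885, minus strand, GRCm38/mm10, GENCODE M21) lies within the span of Zc3h11a (133619862 to 133661380, same strand), so the counting rule decides which of them such reads enter. Zc3h11a was at 150, 155 and 158 CPM in MT and 151, 140 and 144 CPM in WT and was not called (0.12 ± 0.05, adjusted p = 0.0922). The others were Cenpb (-0.29 ± 0.09, adjusted p = 0.0476), Pogz, which encodes a heterochromatin-associated zinc finger protein (-0.17 ± 0.05, adjusted p = 0.0238), and Tigd2 (0.20 ± 0.06, adjusted p = 0.0305). With a replicate block 0 of the list were called in LK cells. Left out singly, MT replicate 1 gave 7 calls, and MT replicates 2 and 3 and WT replicates 2 and 3 gave 1 each, with Zbed6 past the threshold each time. In old Cd11b+ cells Cenpb alone was called, at 45.6, 39.6 and 40.7 CPM in MT and 55.3, 58.6 and 53.7 CPM in WT (-0.43 ± 0.06, adjusted p = 0.0373), where 0.336% of genes were called. This call was lost with a replicate block (adjusted p = 0.194) and without MT replicate 2 (0.261), MT replicate 3 (0.218), WT replicate 2 (0.143) or WT replicate 3 (0.109). Cenpb lies on chromosome 2 (131175182 to 131180067), as Asxl1 does. The part of such linkage in its lower level in MT was not tested. In young Cd11b+ cells 0 of 23 were called (0.0% of genes), with 0 at an unadjusted p under 0.05.

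Between cell types most of these genes differed, as most genes did. In WT 15 of 23 were higher and 6 lower in LK than in old Cd11b+ cells. There 86.9% of genes were called, 45.0% higher and 41.9% lower. In MT 16 were higher and 5 lower, where 87.8% of genes were called (45.6% higher and 42.2% lower). Zbed3, a hAT-derived zinc finger gene, was at 17.5 to 19.3 CPM in LK WT and 1.31 to 1.36 CPM in old WT (3.07 ± 0.09, adjusted p = 8.59e-09). The Tigger-related genes Jrk and Jrkl moved apart. Jrk rose by 2.95 ± 0.16 (adjusted p = 2.35e-07) in WT and 2.72 ± 0.18 (adjusted p = 3.47e-07) in MT, while Jrkl fell by 2.69 ± 0.07 (adjusted p = 3.02e-09) in WT and fell by 2.75 ± 0.07 (adjusted p = 4.24e-10) in MT. Pogk rose by 1.84 ± 0.10 (adjusted p = 2.67e-07) in WT, and Gtf2ird2 by 1.44 ± 0.08 (adjusted p = 4.93e-07) in WT and 1.76 ± 0.11 (adjusted p = 1.50e-07) in MT.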

How the data were processed

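Gene counts and TE counts of each library were deposited by the authors as whole-number counts, not normalized. Per the labels' protocols, a column kit yielded total RNA, from which a directional kit made the libraries. Per the submitters' processing notes, STAR, HTSeq and DESeq2 were used with mm10, with no role given. The TE counter, its handling of reads with several matches and any poly(A) selection are not given in the sources used here, so a subfamily count can hold reads of host transcripts or of related subfamilies. Each cell set lists its own features (smallest sum 2 counts for a TE subfamily and 10 for a gene), and comparisons across sets used those listed in both.

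TE counts were fitted with edgeR 4.0.16 (quasi-likelihood, robust; filterByExpr; limma 3.58.1, R 4.3.3) on the compared groups, with library sizes and TMM factors from gene counts. Benjamini-Hochberg adjustment ran over all tested TE subfamilies, or genes, and calls are at an adjusted p under 0.05. Standard errors are the fold change over the square root of F. Levels in CPM carry no factors. Scripts were tested on simulated data. The alternatives were RLE factors, no factors (chosen after seeing the data), factors from TE counts, no filter, DESeq2 1.42.0, a replicate block, shared fits, summed replicates, class DNA? added, and single libraries left out.

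Members and lists were chosen with earlier results of these data known. The text names, per comparison, up to 5 called subfamilies per direction with 50 counts or more in the higher group, the 10 most abundant, the most abundant of a family, Zaphod2 and Kanga1c, and up to 5 called transposase-derived genes. Others (such as MMAR1, MER44B, Tigger1a_Art, Arthur1, Charlie11 and Zc3h11a) were named after their values were seen. Counts limit precision to counting error at best.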

Additional observations from a re-analysis of the deposited data

Results flagged for a closer look

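In young Cd11b+ WT cells, the highest of the 4 libraries stood far from the other 3 for Kanga1c (15.2 CPM in replicate 4, others 10.9 to 11.4 CPM) and for MER5C (13.3 CPM in replicate 4, others 6.53 to 7.67 CPM). Replicate 4 is one of the 2 young libraries with Ddx3y. The 50 sets of 4 values looked at all came from these same 4 libraries, so they are not independent. Were they independent, chance alone would mark about 1 in 20 of them.

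The difference between MT and WT differed between LK and Cd11b+ cells at 18 months, by edgeR's interaction term on the log2 scale, for 7 named subfamilies. The terms were 0.74 for Kanga2_a, 0.49 for MER58C, -1.01 for Tigger2b, -0.97 for Kanga1c, -0.94 for MamRep434, -0.93 for hAT-N1_Mam and -0.81 for MER47B. With replicates 2 and 3 of each group summed, the adjusted p of these terms lay between 0.125 and 0.306.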

How the results depend on the processing

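Over the named subfamilies and their alternatives, 740 values kept their side of the threshold, 112 lost it and 0 reversed. DNA calls between MT and WT in LK cells (16) became 0 with all 19 libraries and 0 with replicates 2 and 3 summed, and ranged from 3 to 33 with single libraries left out. They were 13 with DESeq2 and 20 with factors from TE counts. In old Cd11b+ cells (0) they were 1 with factors from TE counts and 0 to 26 with single libraries left out, 26 without old WT replicate 1. The 12 terms of genotype by cell type became 0 with all 19 libraries, 0 with replicates 2 and 3 summed and 6 to 24 with single libraries left out. LK against Cd11b+ in WT (121) gave 78 with factors from TE counts. Calls of transposase-derived genes ranged from 0 to 3 in old Cd11b+ cells and from 1 to 7 in LK cells. The cause of these changes was not tested.

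With a replicate block, the terms of genotype by cell type numbered 7, and the transposase-derived genes 0 in old Cd11b+ and 0 in LK cells. The block left DNA calls in LK cells at 15 and moved no other count past 1.5 times. Libraries of the same number did not deviate together in every pair (correlations over TE subfamilies -0.09, 0.30 and -0.49 in young, 0.12, 0.25 and -0.25 in old and -0.10, -0.01 and 0.17 in LK cells), so they share only a number.

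Depth limits the low subfamilies: the median tested DNA subfamily of LK cells had 62.8 counts per library, and Tigger1a_Art was called on 14.7 counts per MT library.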

Other observations

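MER53, a short hAT element, split the 6 old Cd11b+ libraries in a way that crossed the genotypes, and was looked at after its values were seen. It was at 2.63, 8.08 and 2.42 CPM in old MT and 2.86, 7.25 and 6.67 CPM in old WT libraries, so that MT replicate 2 stood with WT replicates 2 and 3. Its highest library was 3.34 times its lowest among old MT, where the median over 96 subfamilies of at least 1 CPM was 1.14, and it had the widest ratio in both old groups. MER34B-int, the internal part of an ERV1 retrovirus and not a DNA transposon, split the same libraries: it was at 0.56, 12.3 and 0.69 CPM in old MT and 0.56, 12.05 and 12.04 CPM in old WT. In LK libraries neither split, with MER53 at 2.89 to 3.98 CPM and MER34B-int at 7.60 to 12.2 CPM. In young libraries MER34B-int was at 50.9, 49.8 and 1.33 CPM in MT and 1.40, 48.2, 47.9 and 1.68 CPM in WT, while MER53 was at 23.9 to 35.7 CPM without such a split. The close replicates MT 2 and MT 3 of the old group were on opposite sides.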
